A study of Mus musculus with 32 samples.

Results

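The DNA replication machinery is the set of proteins that licenses origins, unwinds the double helix, copies both strands and rebuilds chromatin behind the fork. Its 45 genes were chosen by symbol, from what they are known to do, with earlier results of these data already known. They were found among the 23035 genes of each footprint table through their Ensembl identifiers. They fall into 11 groups by role, namely origin recognition, licensing factors, the MCM2-7 helicase, helicase activation, polymerase α-primase, polymerases ε and δ, the clamp and its loader, the single-strand binding protein RPA, Okazaki fragment processing, fork protection, and methylation maintenance with chromatin assembly.

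Footprints are the stretches of mRNA that translating ribosomes shield from a nuclease. Their number on a coding sequence (CDS) follows how much that mRNA is being translated at the moment of lysis. All footprint changes here are relative to the other footprints of a library, so a change of total translation cannot be read from them. By the paper's own assays, global protein synthesis rose early and transiently and was lower after long exposure to IFN-β. From gene sets ranked by translation efficiency, the paper also reports a steady repression of mRNAs for DNA replication proteins. That is another measure than the footprint changes of single genes given here. The study asked how type-I interferon changes mRNA translation in neural stem cells (NSCs). NSCs from the ventricular-subventricular zone (vSVZ) of C57BL/6 mice aged 8 to 12 weeks, males by the study's methods, were grown ex vivo in medium with EGF and FGF. At 48 h after seeding they received either vehicle or IFN-β. They were left for 2 h or 14 h, and all groups then had cycloheximide for 5 min before lysis. Each of these 4 groups has 4 footprint libraries, with a total RNA library from the same lysate beside each, and the methods call the replicates biological. No group carries a transgene or a deletion. These are cultures under mitogens and without other brain cells, and how many animals went into a culture is not given in the sources used here. In such bulk libraries, fewer cells in S phase and fewer footprints per cell cannot be told apart.

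A footprint library held 2956297 to 10505108 counts and a total RNA library 1370008 to 7877753. The labelled cell type was checked with markers. The 8 NSC markers summed to 10631 to 17824 CPM (counts scaled to library size) in every footprint library, and the oligodendrocyte and endothelial lists stayed under 20 CPM. At 14 h the ependymal list summed to 24.5 to 37.7 CPM in vehicle and 76.4 to 98.6 CPM with IFN-β, with Tmem212 at 0. The microglia list went from between 5.99 and 8.63 CPM to between 21.0 and 26.7 CPM, with Cx3cr1, Aif1 and C1qa at 0. The neuroblast list summed to 118 to 146.17 CPM in vehicle and 146.20 to 180.03 CPM with IFN-β. The part of these lists in the results was not tested. The interferon response list summed to at most 29.4 CPM in every vehicle library and to at least 1611 CPM in every IFN-β library.

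DNA is copied once per cycle because loading and firing of helicases are kept apart in time. In G1 the origin recognition complex, with Cdc6 and Cdt1, loads rings of Mcm2 to Mcm7 on DNA, and geminin (Gmnn) holds Cdt1 back after S phase has begun. In S phase Cdc45 and GINS turn the loaded rings into active helicases, polymerase α-primase lays primers, and polymerases ε and δ extend them on the sliding clamp PCNA. Many of these genes are known targets of E2F, a family of transcription factors released when cells pass from G1 into S. Active NSCs of the vSVZ divide and express this set, while quiescent ones hold it low.

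Promoter windows are shown, since E2F is a known regulator of this set, for the members described in full below that hold an E2F match. RefSeq promoters of the build GRCm38.p6, from 250 bases before to 50 after each start, were found for 36 of the 45 genes. They were searched on both strands for TTTGGCGC, TTTCCCGC, TTTGCCGC and TTTCGCGC, which can overlap on opposite strands. One of these stood in a promoter of 17 of the 36 members (47.2%), of 8 of 29 other replication genes (27.6%) and of 2.605% of all 27025 genes. CCAAT, in either direction, stood in 23 members (63.9%) against 41.1% of all genes, and TTTGAA in 6 (16.7%) against 20.2%. Capitals mark the E2F letters or their reverse complement, each window is written on the strand of its gene, and positions count from +1 at the start.
Orc1, chr4:108579416-108579445, plus strand, from -38 to -9: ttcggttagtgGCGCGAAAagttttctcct
Cdc6, chr11:98908002-98908031, plus strand, from -149 to -120: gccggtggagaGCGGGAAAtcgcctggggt
Mcm3, chr1:20820265-20820294, minus strand, from 19 to 48: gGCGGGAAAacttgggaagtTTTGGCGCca
Mcm5, chr8:75109347-75109376, plus strand, from -162 to -133: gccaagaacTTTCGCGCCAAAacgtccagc
Mcm6, chr1:128359737-128359823, minus strand, from -118 to -32: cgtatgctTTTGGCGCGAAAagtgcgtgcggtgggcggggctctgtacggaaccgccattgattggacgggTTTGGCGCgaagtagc
Mcm7, chr5:138172030-138172059, minus strand, from -176 to -147 of the second of 2 listed starts: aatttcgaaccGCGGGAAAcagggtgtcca
Pole2, chr12:69228162-69228191, minus strand, from -1 to 29: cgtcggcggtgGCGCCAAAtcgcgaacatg
Pold3, chr7:100121467-100121496, minus strand, from 7 to 36: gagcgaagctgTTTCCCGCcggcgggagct
Lig1, chr7:13278841-13278870, plus strand, from 16 to 45 of the second of 3 listed starts: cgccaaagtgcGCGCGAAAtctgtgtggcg
Clspn, chr4:126556990-126557019, plus strand, from 11 to 40: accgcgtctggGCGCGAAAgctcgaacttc
Dnmt1, chr9:20952824-20952853, minus strand, from -230 to -201 of the first of 3 listed starts: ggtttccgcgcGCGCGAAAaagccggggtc
Mcm7 has a further match between 6 and 35 and Dnmt1 between 21 and 50. Mcm6 carries 3 matches, more than any other promoter shown, among them a pair that overlaps on opposite strands as in Mcm5. At 14 h the footprint log2 fold changes had a median of -1.63 over the 17 members with a match and -1.55 over the 19 without one.

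After 14 h of IFN-β, footprints fell on all 45 genes. The fit with edgeR's quasi-likelihood test covered 12113 genes, of which 26.3% were called lower at an adjusted p under 0.05 (Benjamini-Hochberg over all genes tested). The members' median log2 fold change was -1.60 and that of all genes tested 0.00, and the members ran from -2.42 for Cdc6 to -0.13 for Rfc1. In each of the 45 genes every IFN-β library lay below every vehicle library, as in 23.7% of all genes tested. Since the members were chosen with earlier results known, their counts beside shares of all genes, here and below, are a description. The members were measured with medians of 96.5 to 3112.5 counts per vehicle library. With DESeq2, 44 of the 45 were called. The call that was lost was Rfc1.

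**Figure D1:**
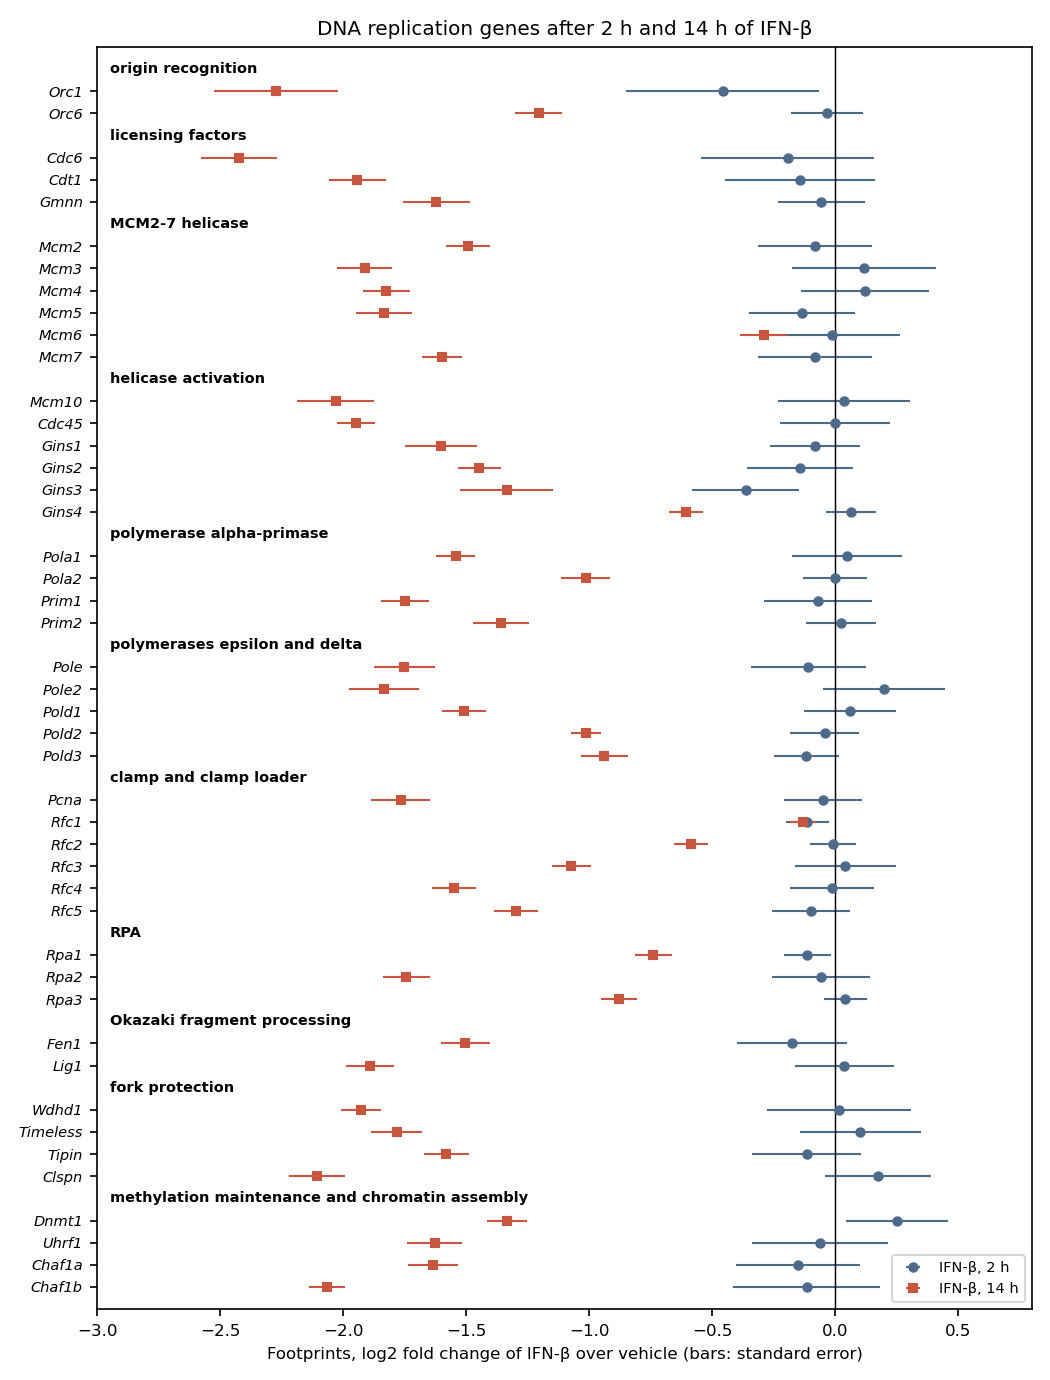
Log2 fold change of footprints, IFN-β over vehicle, for each of the 45 genes by role, at 2 h (blue circles) and 14 h (red squares), with 4 libraries a group; bars are standard errors. At 2 h all values lie between -0.46 and 0.25 and none was called, while at 14 h all lie below 0. Mcm6 (-0.29) sits apart from the other subunits of its ring, and Rfc1 (-0.13) is the upper end of a graded spread in the loader.

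The largest falls of single members were in Cdc6 and Orc1, while Orc6 and Gmnn were smaller or near the members' median. Cdc6, the ATPase that closes the helicase ring on DNA together with Orc1, had 36.0, 36.2, 46.0 and 40.5 CPM in the vehicle libraries and 4.36, 6.32, 9.92 and 7.51 CPM with IFN-β. All IFN-β libraries were low, at 17.7% of the vehicle mean, a log2 fold change of -2.42 (SE 0.15, adjusted p = 3.12e-08). Orc1, the largest subunit of the origin recognition complex and its cell-cycle-regulated member, had 7.90, 9.30, 13.5 and 12.0 CPM in vehicle and 0.670, 2.01, 2.40 and 2.83 CPM with IFN-β. It fell by 2.27 on the log2 scale (SE 0.25, adjusted p = 7.57e-06), from few counts, since the IFN-β libraries held 2 to 26. Orc6, the smallest subunit, had 64.5, 64.0, 70.1 and 59.2 CPM in vehicle and 25.1, 30.6, 31.9 and 23.5 CPM with IFN-β (log2 fold change -1.21, SE 0.10, adjusted p = 3.36e-07). Geminin fell the least of the licensing factors. Gmnn had 22.2, 20.7, 21.4 and 22.5 CPM in vehicle and 6.37, 5.89, 9.47 and 6.32 CPM with IFN-β (log2 fold change -1.62, SE 0.14, adjusted p = 5.24e-07). Cdt1, which Gmnn inhibits, lay between Cdc6 and Gmnn at -1.94.

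In the helicase ring 5 of the 6 subunits fell by 1.49 to 1.91 on the log2 scale and Mcm6 by 0.29. Each subunit is an ATPase with 1 place in the ring. Mcm2 had 244, 273, 299 and 302 CPM in vehicle and 86.8, 93.8, 115 and 99.5 CPM with IFN-β (log2 fold change -1.49, SE 0.09, adjusted p = 1.62e-08). Mcm3 had 273, 280, 312 and 292 CPM in vehicle and 56.3, 69.4, 93.6 and 82.6 CPM with IFN-β (-1.91, SE 0.11, adjusted p = 1.40e-08). Mcm4 had 260, 246, 286 and 254 CPM in vehicle and 61.3, 70.4, 90.002 and 70.5 CPM with IFN-β (-1.83, SE 0.09, adjusted p = 4.05e-09). In these 3 genes no IFN-β library reached 50% of the lowest vehicle library. Mcm5 had 185, 216, 232 and 230 CPM in vehicle and 45.6, 56.7, 74.7 and 61.0 CPM with IFN-β (-1.84, SE 0.11, adjusted p = 2.53e-08). Mcm7 had 147, 133, 145 and 137 CPM in vehicle and 38.2, 42.4, 50.5 and 50.8 CPM with IFN-β (-1.60, SE 0.08, adjusted p = 3.39e-09). The values of Mcm6 were of another size. Mcm6, on chr1:128331590-128359664 of GRCm38 on the minus strand, had 297, 296, 322 and 304 CPM in vehicle and 197, 232, 295 and 267 CPM with IFN-β. The highest IFN-β library came within 1 CPM of the lowest vehicle library, and the IFN-β mean was 81.3% of the vehicle mean (log2 fold change -0.29, SE 0.10, adjusted p = 0.0222). The call of Mcm6 was lost without IFN-β replicate 2 (adjusted p = 0.0697) and without vehicle replicate 3 (adjusted p = 0.0648).

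**Figure D2:**
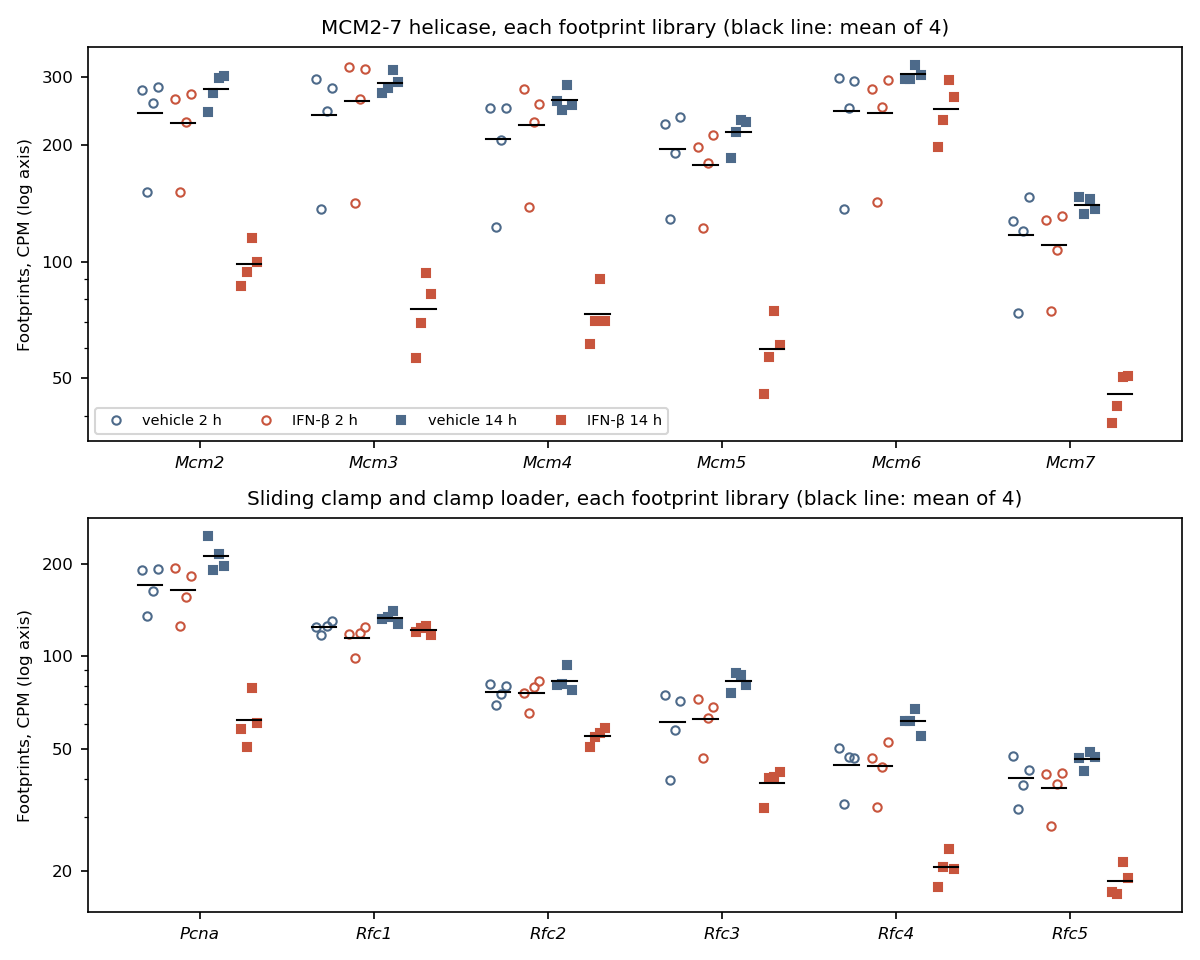
Footprints in CPM on a log axis for the subunits of the MCM2-7 ring (top) and for the clamp and its loader (bottom), 1 point per library with open circles for 2 h and filled squares for 14 h; vehicle is blue, IFN-β red, and black lines are means of 4 libraries. At 14 h the IFN-β libraries of Mcm6 (197 to 295 CPM) and Rfc1 (118 to 126 CPM) stay close to their vehicle libraries, and at 2 h the libraries numbered 3 are the low point of most genes.

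Expressed per length, the subunits were close to each other in vehicle and uneven with IFN-β. Footprints per kilobase of CDS, the scale on which genes can be compared, were 65.0 CPM per kb for Mcm7 and 97.9 to 122 CPM per kb for the other 5 subunits in vehicle at 14 h, a range of 1.88-fold. With IFN-β, Mcm6 stood at 99.2 ± 17.0 CPM per kb (SD, n = 4) and the other 5 at 21.1 to 35.6, a range of 4.71-fold. As a share of all footprints per kb on the ring, Mcm6 held 20.8%, 20.2%, 19.9% and 19.8% in the vehicle libraries and 40.4%, 40.8%, 40.7% and 41.9% in the IFN-β libraries. At 2 h its share was 17.9% to 19.9% in vehicle and 18.2% to 19.7% with IFN-β, so the groups overlapped. The share was computed after the values of Mcm6 had been seen and is given without a test.

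**Figure D3:**
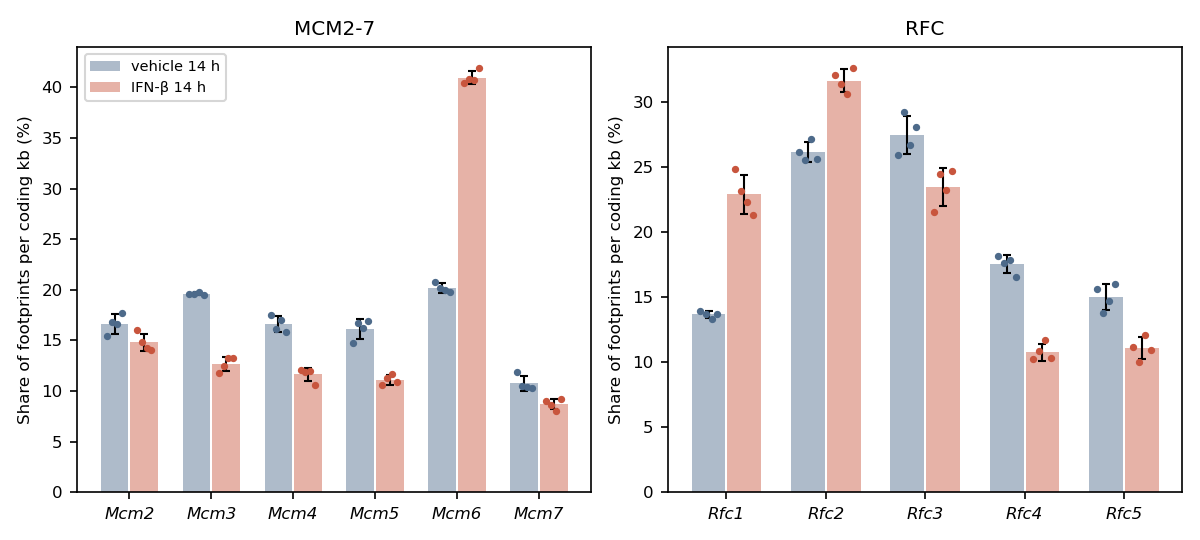
Share of the footprints per coding kilobase of its complex that each subunit held at 14 h, in percent, for the MCM2-7 ring (left) and the clamp loader RFC (right); bars are means of 4 libraries, error bars SD, points single libraries, vehicle blue and IFN-β red. Mcm6 went from 20.2% to 41.0%, Rfc1 from 13.7% to 22.9% and Rfc2 from 26.2% to 31.7%, while the shares of Mcm3, Mcm4 and Mcm5 were lower with IFN-β.

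The factors that switch the ring on fell as well, with GINS subunits at different sizes. Mcm10, which helps to open the loaded ring, had 51.2, 53.4, 61.7 and 51.3 CPM in vehicle and 8.71, 10.9, 19.2 and 12.5 CPM with IFN-β (log2 fold change -2.03, SE 0.16, adjusted p = 2.06e-07). Cdc45, its partner in activation, fell by 1.95 on the log2 scale. GINS is a ring of 4 small proteins, and 3 of its genes lay at -1.34 to -1.60. Gins4 was the exception, with 38.0, 41.5, 40.2 and 38.8 CPM in vehicle and 27.5, 24.9, 26.3 and 26.0 CPM with IFN-β (-0.61, SE 0.07, adjusted p = 9.57e-06). Per kb of CDS, GINS subunits spanned 4.83-fold in vehicle and 6.39-fold with IFN-β.

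All 9 polymerase and primase genes fell, the catalytic and the regulatory subunits alike. Prim1, the catalytic primase subunit, which makes the RNA primer, had 54.2, 58.0, 57.5 and 50.5 CPM in vehicle and 13.1, 14.7, 18.03 and 17.97 CPM with IFN-β (log2 fold change -1.75, SE 0.10, adjusted p = 7.63e-09). Pola2, the accessory subunit of polymerase α, had 40.9, 40.4, 41.4 and 44.4 CPM in vehicle and 15.4, 19.8, 21.0 and 24.0 CPM with IFN-β (-1.01, SE 0.10, adjusted p = 2.48e-06). Pola1 and Prim2 lay between them at -1.54 and -1.36. Polymerase ε copies the leading strand and polymerase δ the lagging strand. Pole2, the second subunit of polymerase ε, had 30.7, 32.3, 34.8 and 26.3 CPM in vehicle and 6.03, 7.47, 10.97 and 8.93 CPM with IFN-β (-1.84, SE 0.14, adjusted p = 2.45e-07). Pold3, an accessory subunit of polymerase δ, had 39.1, 40.4, 48.8 and 42.0 CPM in vehicle and 23.5, 20.5, 24.9 and 20.8 CPM with IFN-β (-0.94, SE 0.09, adjusted p = 3.13e-06). The catalytic genes lay in between, Pole at -1.75 and Pold1 at -1.51, as did Pold2 at -1.01. All IFN-β libraries of these genes were below all vehicle libraries.

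The sliding clamp fell and the large subunit of its loader barely moved. Pcna, the ring that tethers the polymerases to DNA, had 246, 191, 215 and 196 CPM in vehicle and 58.0, 50.7, 78.6 and 60.4 CPM with IFN-β (log2 fold change -1.77, SE 0.12, adjusted p = 5.34e-08). At 271 CPM per kb of CDS in vehicle, it was the highest member, and Orc1 at 4.23 was the lowest. The annotation lists processed copies of Pcna, named Pcna-ps1 and Pcna-ps2, with which reads could be shared. RFC, the clamp loader, has 5 subunits. Rfc1, on chr5:65261850-65335670 on the minus strand, had 132, 134, 141 and 127 CPM in vehicle and 120, 123, 126 and 118 CPM with IFN-β. Its log2 fold change was -0.13 (SE 0.05, adjusted p = 0.0495), and the call was lost in 7 of 8 fits that left out 1 library, with an adjusted p of 0.0582 to 0.177. The fold change of the small subunits was -0.59 for Rfc2, -1.07 for Rfc3, -1.55 for Rfc4 and -1.30 for Rfc5. The share of Rfc1 in the footprints per kb of the loader was 13.7% ± 0.249 in vehicle and 22.9% ± 1.501 with IFN-β (SD, n = 4), again without a test.

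RPA coats single-stranded DNA as a trimer, and its genes fell by different amounts. Rpa2, the middle subunit, had 77.3, 76.2, 83.5 and 83.5 CPM in vehicle and 24.1, 19.1, 28.4 and 24.3 CPM with IFN-β (log2 fold change -1.74, SE 0.10, adjusted p = 7.07e-09). Rpa1, the large DNA-binding subunit, had 231, 229, 247 and 236 CPM in vehicle and 122, 130, 155 and 154 CPM with IFN-β (-0.74, SE 0.08, adjusted p = 3.31e-06). Rpa3 lay near Rpa1 at -0.88. In vehicle the 3 genes were within 1.32-fold of each other per kb of CDS, at 98.8 to 131 CPM per kb, and with IFN-β they spanned 2.46-fold.

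The genes that finish the lagging strand and guard the fork fell together. Lig1, the ligase that seals Okazaki fragments, had 113, 122, 134 and 121 CPM in vehicle and 28.1, 28.6, 40.4 and 33.3 CPM with IFN-β (log2 fold change -1.89, SE 0.10, adjusted p = 3.96e-09). Fen1, the nuclease that trims the flap before ligation, had 73.5, 88.8, 91.1 and 88.0 CPM in vehicle and 24.5, 26.7, 33.5 and 33.4 CPM with IFN-β (-1.51, SE 0.10, adjusted p = 4.59e-08). Claspin and the Timeless-Tipin pair hold polymerases and helicase together and pass on checkpoint signals. Clspn had 62.1, 61.3, 64.2 and 62.9 CPM in vehicle and 10.7, 12.9, 19.1 and 13.8 CPM with IFN-β (-2.11, SE 0.11, adjusted p = 6.05e-09), which made it the third lowest member after Cdc6 and Orc1. Tipin, at the other end of the group, had 69.4, 64.6, 61.8 and 64.3 CPM in vehicle and 26.5, 18.7, 23.4 and 20.4 CPM with IFN-β (-1.58, SE 0.09, adjusted p = 1.09e-08). Wdhd1, which links helicase and polymerase α, lay at -1.93 and Timeless at -1.78.

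All 4 genes of methylation maintenance and chromatin assembly fell. Chromatin assembly factor 1 places new histones behind the fork, and Chaf1b, its middle subunit, had 70.5, 77.7, 78.1 and 77.5 CPM in vehicle and 15.7, 18.1, 18.2 and 19.4 CPM with IFN-β (log2 fold change -2.07, SE 0.07, adjusted p = 6.93e-11). Its partner Chaf1a lay at -1.64. Dnmt1, the methyltransferase that copies DNA methylation to the new strand, had 351, 329, 370 and 354 CPM in vehicle and 128, 123, 163 and 141 CPM with IFN-β (-1.33, SE 0.08, adjusted p = 1.95e-08). Uhrf1, which brings Dnmt1 to hemimethylated sites, lay at -1.63. Among role groups the median log2 fold change ran from -1.94 for licensing factors and -1.86 for fork protection to -1.19 for the clamp and loader and -0.88 for RPA. These medians are over 2 to 6 genes each and the differences between groups were not tested.

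After 2 h none of the 45 members was called. Of the 12104 genes tested 2.01% were called lower and 5.25% higher with edgeR. No member reached an unadjusted p under 0.05 in edgeR, in DESeq2 or in limma-voom. The members' log2 fold changes had a median of -0.05, beside -0.02 over all genes, and ran from -0.46 for Orc1 to 0.25 for Dnmt1, with 30 of 45 below 0. That count and the median turned on single libraries: without IFN-β replicate 3, 9 of 45 lay below 0 and the median was 0.06, and without vehicle replicate 3, 40 of 45 and -0.17. Standard errors ran from 0.09 for Rpa3 to 0.39 for Orc1, and over the MCM2-7 subunits from 0.22 to 0.29. A change as small as that of Rfc1 at 14 h was thus not detectable in this edgeR fit, which leaves out the pairing of cultures. Larger ones could also go uncalled, as Orc1 did at -0.46 (unadjusted p = 0.274), so moderate early changes are not excluded.

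The libraries numbered 3 stood apart at 2 h in both treatments. Relative to the vehicle mean in log2 CPM, the median member was at -0.56 in vehicle replicate 3 and at -0.46 in IFN-β replicate 3, with all 45 members below 0 in both. In the other 6 libraries the median member lay between -0.01 and 0.27. Cdc6 shows the size of this: it had 34.9, 10.6, 30.6 and 36.6 CPM in vehicle and 28.8, 15.4, 24.2 and 29.7 CPM with IFN-β, and the second value of each is replicate 3. Without both of these libraries, a choice made after seeing the data, no member was called with edgeR, 4 having an unadjusted p under 0.05, beside 14.1% of all genes in either direction.

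**Figure D4:**
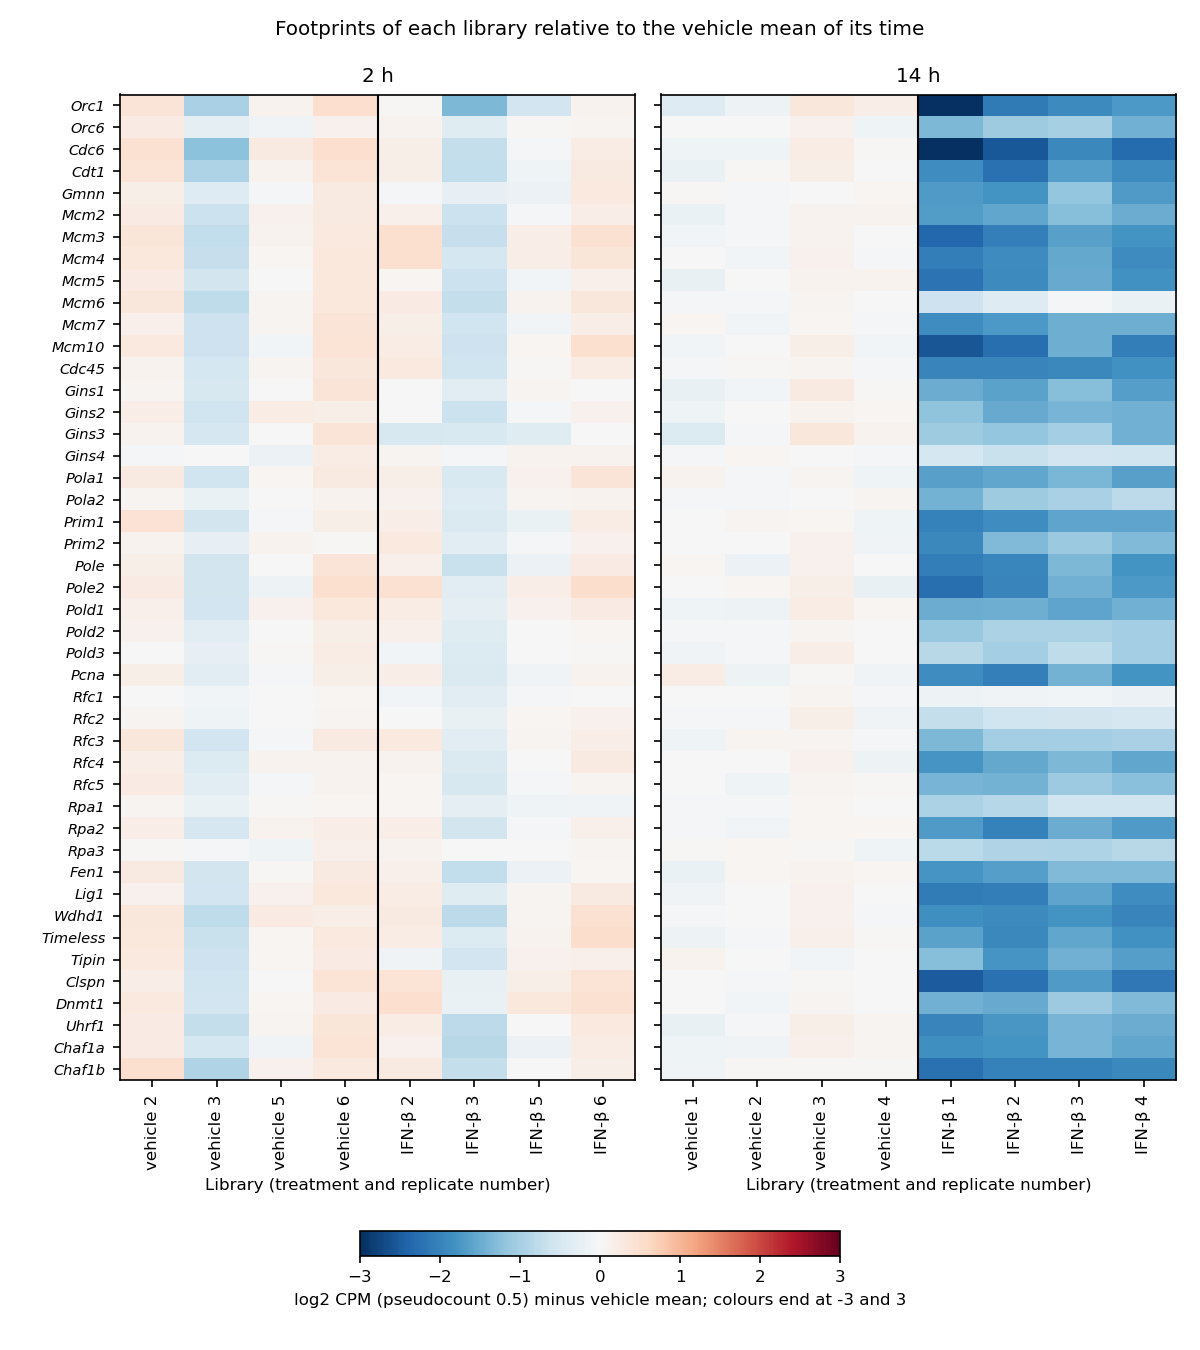
Footprints of the 45 genes in each of the 16 libraries as log2 CPM (pseudocount 0.5 CPM) minus the vehicle mean of the same time, at 2 h (left) and 14 h (right); rows are genes in order of role, columns libraries by treatment and replicate number, blue is below the vehicle mean and colours end at -3 and 3. At 2 h the 2 columns numbered 3 are blue in both treatments, and at 14 h the 4 IFN-β columns are blue in all rows but pale in Mcm6 and Rfc1.

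Since cultures with the same number deviated together, the number was also used as a block. In that fit 3 members were called lower and 3 higher at 2 h, beside 13.4% of all genes lower and 15.9% higher, so the members' counts were not above the background. Orc1 was at -0.47 (SE 0.15, adjusted p = 0.0185), Fen1 at -0.18 (SE 0.06, adjusted p = 0.0180) and Mcm5 at -0.13 (SE 0.05, adjusted p = 0.0360). Dnmt1 was at 0.26 (SE 0.04, adjusted p = 3.45e-05), Clspn at 0.18 (SE 0.07, adjusted p = 0.0434) and Mcm4 at 0.13 (SE 0.05, adjusted p = 0.0419). Dnmt1 was the clearest of them. It had 346, 192, 294 and 335 CPM in vehicle and 401, 246, 352 and 388 CPM with IFN-β, so that each IFN-β library was above the vehicle library of its own number although the groups overlap.

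The change at 14 h was tested against the change at 2 h over all 16 footprint libraries. It was lower at 14 h in 43 of 45 members, beside 15.5% of the 12508 genes tested, with a median difference of -1.56 on the log2 scale. The largest differences were -2.28 for Clspn (SE 0.28, adjusted p = 1.61e-05) and -2.24 for Cdc6 (SE 0.43, adjusted p = 0.00112). Mcm6 and Rfc1 were the members not called. The difference for Mcm6 was -0.27 (SE 0.32, adjusted p = 0.550) and that for Rfc1 -0.01 (SE 0.10, adjusted p = 0.963). With the replicate block, Mcm6 was called at the same value (-0.27, adjusted p = 0.00168) and Rfc1 was not.

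Partners were compared inside each library, where scaling plays no part. For 14 pairs of genes the log2 ratio of footprint counts (each plus 0.5) was compared between treatments with a two-sided exact permutation test over 4 against 4 libraries, 28 tests in all. Libraries were permuted without regard to their numbers, so the pairing of cultures was left out. None passed after Benjamini-Hochberg adjustment. The smallest p that the design allows, 0.0286, was reached in 8 pairs at 14 h and 3 at 2 h, all with an adjusted p of 0.0727. At that smallest p, 17 or more of the 28 tests would have to reach it before any could pass, so the adjusted values say nothing of which ratios changed. At 14 h the largest shift was in the loader. Rfc1 over Rfc4 had log2 ratios of 1.10, 1.12, 1.06 and 1.21 in vehicle and 2.75, 2.57, 2.41 and 2.53 with IFN-β, a shift of 1.44 (exact p = 0.0286). Rpa1 over Rpa2 had 1.58, 1.59, 1.56 and 1.4996 in vehicle and 2.33, 2.77, 2.44 and 2.67 with IFN-β, a shift of 0.99. In both pairs the gene that fell less was the large subunit, but in Orc1/Orc6, Pold1/Pold3 and Pola1/Pola2 the larger subunit fell more. Orc1 over Orc6, with few Orc1 counts, shifted by -1.26, which in size lay between the loader and RPA. Cdc6 over Cdt1 shifted by -0.60, Pold1 over Pold3 by -0.58 and Prim1 over Prim2 by -0.35. Chaf1a over Chaf1b shifted by 0.42 and Fen1 over Lig1 by 0.38. The other 6 pairs at 14 h, Pola1 over Pola2 and Timeless over Tipin among them, shifted by -0.48 to 0.31.

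**Figure D5:**
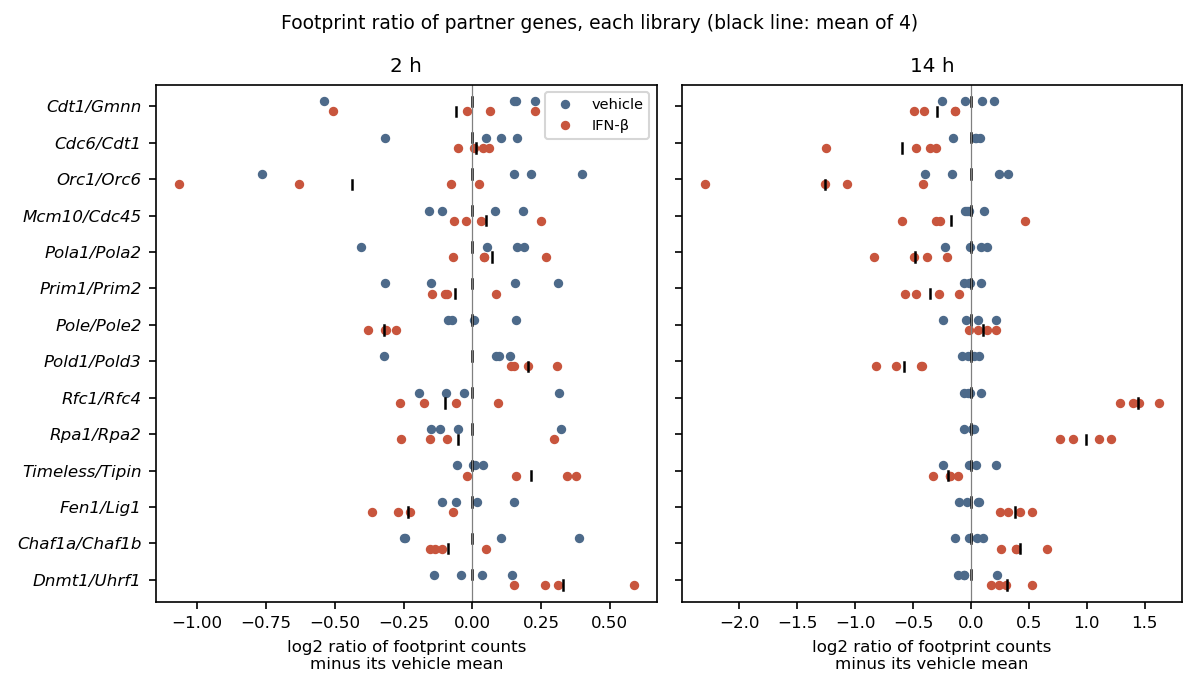
Log2 ratio of the footprint counts of partner genes in each library minus the vehicle mean of that ratio, at 2 h (left) and 14 h (right, on a wider axis); points are libraries, vehicle blue and IFN-β red, and black lines means of 4. At 14 h Rfc1/Rfc4 (1.44) and Rpa1/Rpa2 (0.99) lie farthest to the right and Orc1/Orc6 (-1.26) farthest to the left, with an adjusted p of 0.0727 for each.

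At 2 h Pole over Pole2 shifted by -0.32, Pold1 over Pold3 by 0.20 and Dnmt1 over Uhrf1 by 0.33 at the same adjusted p. The shift of Pold1 over Pold3 rested in part on vehicle replicate 3 and was 0.09 without it.

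Total RNA counts of the members were low. Median total RNA counts per library at 14 h were under 10 in 27 of the 45 genes, and Cdt1 and Rpa3 had 0 in all 8 libraries. Of the members' total RNA counts at 14 h 81.8% fell on 3 genes, Rfc5, Gins2 and Pola1. Rfc5 shares exon sequence with Wsb2 and Gins2 with Gse1 on the opposite strand, while Pola1 shares none. Fen1, with 2039 bases of exon opposite Gm10143 and Tmem258, had 2 to 11 total RNA counts in vehicle at 14 h. The strand setting of the counting is not given in the sources used here. In footprints the 31 members without an exon on the opposite strand had a median log2 fold change of -1.58 at 14 h and the 14 with one had -1.62. Overlap was taken over all exons, while footprints were counted in the CDS alone. This split therefore does not tell which footprint counts could be shared, and a part of overlapping genes in the footprint changes was not tested. In total RNA at 14 h 18 members could be tested and 1 was called lower, beside 2.83% of 7520 genes. That member was Uhrf1, with 38, 25, 10 and 32 counts in vehicle and 6, 17, 15 and 12 counts with IFN-β (log2 fold change -1.51, SE 0.30, adjusted p = 0.00515). The other 17 lay between -0.38 and 0.44, with standard errors near 0.27 against 0.10 in footprints. At 2 h 31 members could be tested and none was called with edgeR or DESeq2, 4 having an unadjusted p under 0.05 in each, beside 0.799% of all genes called.

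Translation efficiency (TE) is fitted as the change in footprints beyond the change in total RNA. The total RNA kit was directional by the methods, and Pcna had 1 to 5 total RNA counts in the vehicle libraries at 14 h. Whether reads were counted on the opposite strand was not tested. If they were, neither the total RNA nor the TE values measure the members' own mRNA, so both are given as fitted values only. At 14 h TE was lower in 19 members and higher in none, beside 3.96% of 13447 genes called lower at an adjusted p under 0.1. The fitted changes of the 19 ran from -2.36 for Cdc6 to -0.72 for Pola2, and 16 of them, Cdc6 not among these, had enough total RNA counts to be tested there. Clspn was at -2.26 (SE 0.20, adjusted p = 3.65e-08) and Lig1 at -1.86 (SE 0.24, adjusted p = 1.36e-05). Uhrf1, the member whose total RNA counts were called lower, was at -0.16 (SE 0.31, adjusted p = 0.886). For members with few total RNA counts the TE value rests largely on the footprints, as in Cdt1, where the fit gave no usable error. At 2 h no member's TE was called with edgeR, where 4 had an unadjusted p under 0.05, or with DESeq2, where 5 did, beside 0.815% of all genes called.

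The 34 other replication genes, which were listed by role and include regulators of firing, alternative clamp loaders and histone chaperones, were described by counts. At 14 h 27 were called lower and none higher, beside 26.3% of all genes tested lower and 26.2% higher. The median log2 value of the 34 was -0.85. The 3 largest changes were in Dscc1, of the loader that serves cohesion (-2.75, SE 0.14, adjusted p = 4.69e-09), the chromatin remodeller Hells (-2.14, SE 0.09, adjusted p = 3.71e-10) and the nuclease Dna2 (-1.93, SE 0.09, adjusted p = 1.59e-09). Orc3, Orc4, Mcm9, Pold4, Rnaseh1, Top1 and Asf1a were not called. At 2 h 1 of the 34 was called, beside 2.01% of all genes lower and 5.25% higher, so that count was not above the background. It was Top1, a topoisomerase that relaxes supercoils (0.68, edgeR adjusted p = 0.00332). Both lists were chosen with results in view, so the distance between their medians is a description.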

How the data were processed

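The authors trimmed reads with Trim Galore 0.4.4, aligned them with Bowtie 0.12.7 to the mm10 transcriptome, removed duplicates and counted reads in the CDS for footprints and in the gene body for total RNA. The deposited values are raw counts, whole numbers without normalization. All 32 libraries were mapped by label, with 0 columns left out. Duplicate removal without molecular identifiers can lower counts of abundant short footprints. Positions come from GENCODE M21.

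Genes reaching 10 counts in 4 or more libraries were tested with edgeR 4.0.16 in R 4.3.3 (TMM scaling, quasi-likelihood test, two-sided) over the whole table, checked on simulated data. DESeq2 1.42.0, limma 3.58.1, total-count scaling, other filters, a replicate block and leave-one-out fits were alternatives. CPM use TMM library sizes. Ratios were tested with scipy 1.17.1.

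Members and lists were chosen with earlier results of these data known. Full values are given for the largest and smallest change in each role group and for MCM2-7. Same-numbered vehicle and IFN-β footprint libraries deviated together from their group means (r = 0.339, 0.224, 0.192 and 0.418 at 14 h and 0.627, 0.812, 0.328 and 0.532 at 2 h), so the numbers were taken to pair them.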

Additional observations from a re-analysis of the deposited data

Results flagged for a closer look

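In 43 of 45 members the change with IFN-β differed between 14 h and 2 h by edgeR's interaction test. Among the 26 members described in full, 24 passed, and the values are the change at 14 h minus that at 2 h on the log2 scale. Origin and licensing genes differed by -1.83 (Orc1), -1.16 (Orc6), -2.24 (Cdc6) and -1.56 (Gmnn). In the MCM2-7 ring the differences were -1.40 (Mcm2), -2.03 (Mcm3), -1.95 (Mcm4), -1.70 (Mcm5) and -1.52 (Mcm7), and in helicase activation -2.07 (Mcm10) and -0.66 (Gins4). Polymerase genes differed by -1.02 (Pola2), -1.68 (Prim1), -2.04 (Pole2) and -0.81 (Pold3), Pcna by -1.71, and RPA genes by -0.62 (Rpa1) and -1.67 (Rpa2). For fork and chromatin genes the values were -1.33 (Fen1), -1.92 (Lig1), -1.44 (Tipin), -2.28 (Clspn), -1.58 (Dnmt1) and -1.95 (Chaf1b).

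A single library lay far from the other 3 of its group in 4 of 104 groups checked, by Dixon's criterion, which chance alone passes in about 1 of 20 groups. Gmnn had 9.47 CPM in IFN-β replicate 3 at 14 h against 5.89 to 6.37 CPM in the others. Chaf1b had 70.5 CPM in vehicle replicate 1 at 14 h against 77.5 to 78.1 CPM. In IFN-β replicate 3 at 2 h, Gins4 had 35.6 CPM against 39.3 to 39.9 CPM and Pola2 had 29.2 CPM against 40.8 to 42.2 CPM.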

How the results depend on the processing

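Members called lower in footprints at 14 h numbered 44 or 45 under every other test, scaling, filter and block, and 43 to 45 when a library was left out. For the difference between times the counts were 43 or 44 and 42 to 43. Gins3 lost that call without IFN-β replicate 6 at 2 h, IFN-β replicate 4 at 14 h or vehicle replicate 3 at 14 h. At 2 h the replicate block turned 0 and 0 members into 3 lower and 3 higher. Over all genes that block gave 1618 lower and 1920 higher against 243 and 635. The block without both libraries numbered 3, added after seeing the data, gave 6 members lower and 2 higher. Of the 11892 genes tested in that fit, 12% were called lower and 14.6% higher, so these counts were not clearly above the background. Leaving out single libraries at 2 h, without a block, gave 0. In single members, Rfc1 at 14 h was not called with DESeq2, without the filter or at a mean of at least 50 counts, and its difference between times turned positive with total counts (0.0121) and at a mean of at least 50 counts (0.0098), with -0.0739 to 0.0301 over libraries left out. At 2 h, libraries left out gave -0.0608 to 0.30 for Mcm4 and -0.29 to 0.00771 for Mcm5. Total RNA at 14 h gave 2 members without the filter, beside 1.3% of all genes called lower. It gave 0 of 6 at a mean of at least 50 counts, and 1 with any library left out. TE at 14 h gave 6 of 6 at that mean, where 16.9% of 1194 genes were called lower. Over cultures left out TE gave 16 to 20 lower and 0 to 1 higher. Total RNA libraries with the same number did not deviate together as a set (r = 0.258, 0.0925, -0.0121 and 0.0483 at 14 h). At 2 h the values were -0.0129, 0.39, 0.0197 and -0.477, while vehicle replicate 2 and IFN-β replicate 6 had 0.589. Whether the numbers pair the total RNA libraries was not tested. The block changed no count of members called in total RNA or TE. With a pseudocount of 5 the partner ratios could not pass either, since too few tests reached the smallest p. With total counts alone, the median of all genes moved from 0.04 to 0.23 in total RNA and from -0.04 to -0.38 in TE at 2 h, and no member was called there. Single total RNA libraries stood apart by chi-square per degree of freedom between 2 libraries. At 14 h vehicle replicate 3 was at 228 to 277 against the other vehicle libraries, which were at 7.12 to 40.0 among themselves. At 2 h vehicle replicate 5 was at 450 to 544, and the others at 42.9 to 61.7. Low counts also limit total RNA, where 27 members had medians under 10 counts at 14 h and 14 at 2 h. Footprint medians over the members were 282.5 and 390 counts. The cause of these changes was not tested.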
